A study of Mus musculus with 6 samples.

Results

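The genes described here are 10 that serve complement, the uptake of dying cells and adhesion in macrophages: C1qa, C1qb, C1qc, Axl, Mertk, Mrc1, Cd68, Adgre1, Vcam1 and Spic. They were chosen by name from what is known of macrophages, with earlier results of these data known. Each was matched by gene symbol in each library. All 10 were found among the 24411 genes of the files, and all 10 were among the 12953 genes that passed the filter on low counts. To ask how loss of Brd9, which encodes a bromodomain subunit of a SWI/SNF chromatin remodeller, the non-canonical BAF complex, alters gene expression in blood progenitors, RNA was sequenced in 6 libraries of lineage-negative marrow cells from 4-month-old C57BL/6 mice. The 3 control libraries were CD45.2(+) Brd9fl/fl and the 3 Brd9 KO libraries CD45.2(+) Mx1-Cre Brd9fl/fl, so both groups carried the floxed Brd9 allele. Both received 3 injections of pIpC at 20 mg/kg, with a start at 4 weeks given for all 6 libraries. pIpC is a double-stranded RNA mimic that switches Mx1-Cre on through interferon. Cells were taken 8 weeks after pIpC. The labels describe transplant recipients, the series design and the study's methods describe primary mice, and the methods add a sort for the progenitor receptor c-Kit.

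Several features limit these groups as a model of macrophages. Mx1-Cre acts in many interferon-responsive cells besides blood progenitors, macrophages among them, and the control mice carried no Cre, so that effects of Cre and of Brd9 loss cannot be told apart. The libraries are bulk RNA of a population from which mature cells were to be removed, and in such samples fewer cells of a type and less RNA per cell cannot be told apart. The study describes the replicates as biological triplicates, but the labels do not tie them to separate animals, without which p-values would reflect the spread between preparations alone.

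C1q is the recognition molecule of the classical complement pathway. Its A, B and C chains assemble into one protein that binds antibody complexes and the surface of dying cells, and unlike most complement proteins it is made chiefly by macrophages and dendritic cells rather than by the liver. In marrow, resident macrophages form the centre of erythroblastic islands, where they hold maturing red cells through adhesion molecules such as Vcam1 and engulf their expelled nuclei. The receptor kinases Axl and Mertk recognise phosphatidylserine on dying cells through the bridging proteins Gas6 and protein S.

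The 3 C1q genes form a cluster at chr4:136880129-136898803 (mm10), a span of 18675 bases on the minus strand in the order C1qb, C1qc, C1qa, with 3 exons in each and no other gene between them. Promoter windows, running from 250 bases before to 50 bases after the annotated start, were matched in RefSeq (GRCm38.p6) for 7 of the 10 genes, all except C1qa, Vcam1 and Adgre1. Those of C1qb (chr4:136886151-136886450, minus strand), C1qc (chr4:136892865-136893164, minus strand) and Cd68 (chr11:69666121-69666420, minus strand) are shown because these 3 genes were higher in Brd9 KO under every alternative tried. Capitals mark a core of ETS factors such as PU.1 (AGGAAG, or CTTCCT on the other strand) and a half-site of MAF factors (TGCTGA or TCAGCA).
C1qb: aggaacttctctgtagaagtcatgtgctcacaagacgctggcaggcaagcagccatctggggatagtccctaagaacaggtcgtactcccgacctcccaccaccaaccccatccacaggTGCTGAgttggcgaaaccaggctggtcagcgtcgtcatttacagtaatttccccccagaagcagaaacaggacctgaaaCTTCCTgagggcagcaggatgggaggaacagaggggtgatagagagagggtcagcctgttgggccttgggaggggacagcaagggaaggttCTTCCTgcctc
C1qc: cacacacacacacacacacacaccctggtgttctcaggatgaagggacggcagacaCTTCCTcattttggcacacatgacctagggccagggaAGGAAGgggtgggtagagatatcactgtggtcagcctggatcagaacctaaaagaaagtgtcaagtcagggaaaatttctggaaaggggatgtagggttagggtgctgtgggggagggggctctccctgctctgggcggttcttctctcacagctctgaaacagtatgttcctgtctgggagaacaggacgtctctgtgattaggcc
Cd68: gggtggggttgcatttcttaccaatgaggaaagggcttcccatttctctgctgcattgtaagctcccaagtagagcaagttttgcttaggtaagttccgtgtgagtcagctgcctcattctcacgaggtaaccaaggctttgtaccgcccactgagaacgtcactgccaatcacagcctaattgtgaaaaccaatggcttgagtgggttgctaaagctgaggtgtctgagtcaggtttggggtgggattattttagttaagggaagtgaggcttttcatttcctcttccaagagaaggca
The ETS core was found in 5 of the 7 windows (Axl, C1qb, C1qc, Mrc1 and Spic), while 35.4% of 32851 mouse promoter windows of the same length hold it. In C1qb it began 52 bases before and 39 bases after the start, and in C1qc 194 and 157 bases before it. The MAF half-site was found in 2 of the 7 (C1qb and Spic), against 19.5% of all windows. A core of the antioxidant response element (TGACNNNGC, or GCNNNGTCA on the other strand) was found in C1qb alone, against 12.4% of all windows, and did not overlap the marked motifs there. These matches describe letters within the windows, and Cd68 and Mertk held none of the motifs searched.

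Library totals ran from 21151000 to 28500200 expected counts. Brd9 stood at 45.9, 49.1 and 52.1 CPM (counts scaled to library size by TMM) in control replicates 1, 2 and 3 and at 15.6, 13.5 and 21.03 CPM in Brd9 KO replicates 1, 2 and 3, so its level followed the labels (log2 fold change -1.56 ± 0.17 (SE), edgeR adjusted p = 0.00345). The stem and progenitor genes Kit (221 ± 13.4 CPM in control, 238 ± 51.4 in Brd9 KO) and Cd34 (316 ± 50.05 and 352 ± 53.5 CPM) were abundant in both groups. Of the antigens used to remove mature cells, Cd3e stood at 1.39 ± 0.379 CPM in control and 1.93 ± 0.497 in Brd9 KO, while Itgam (CD11b) rose from 53.4 ± 10.8 to 122 ± 29.9 CPM. Ly6a, which encodes Sca-1, was at 26.1 ± 2.62 and 27.6 ± 8.05 CPM, and the leukocyte antigen Ptprc (CD45) rose from 159 ± 18.3 to 220 ± 16.6 CPM (adjusted p = 0.0527). Brd9 KO replicate 3 stood apart in summed granulocyte markers, with 7868 CPM over 11 neutrophil genes and 8606 CPM over 10 eosinophil genes. The other KO libraries held at most 1395 and 4472 CPM. Prg2 alone gave 6729 CPM of this eosinophil sum, and not every marker was high there. The eosinophil gene Epx (132 CPM) and the neutrophil gene Camp (38.0 CPM) lay below every control library.

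Most of the 10 genes were higher in Brd9 KO and 1 was lower. In edgeR's quasi-likelihood test, adjusted over all 12953 genes (adjusted p under 0.1), 7 of the 10 rose (C1qa, C1qb, C1qc, Cd68, Adgre1, Axl and Mertk), where 9.19% of all tested genes did. Vcam1 was the 1 that fell, where 6.25% of all tested genes did, and Mrc1 and Spic did not pass, so that 8 of 10 were called in either direction against 15.4% of all genes. For 9 of the 10, all except Mrc1, the KO and control libraries did not overlap, as was the case for 33.5% of all genes. Mertk passed the filter through the KO libraries only, which favours a difference, so its call adds no support. Of the other 9 genes, 6 rose, 1 fell and 2 did not pass. The median log2 fold change was 0.97 over the 10 genes and 0.92 without Mertk, beside 0.02 over all genes tested. Since the genes were chosen with earlier results of these data known, these counts and medians are a description and no independent support.

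**Figure D1:**
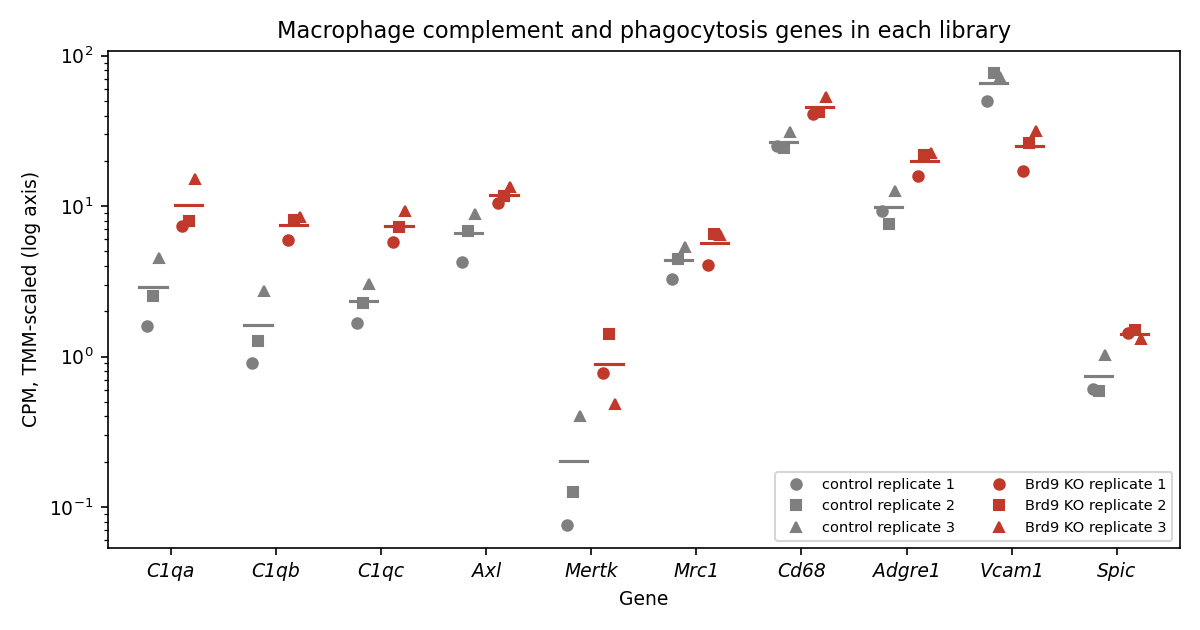
Level of each of the 10 genes in CPM (vertical log axis) in the 3 control and 3 Brd9 KO libraries (1 point per library, lines at the group means). The control and KO points overlap for Mrc1 alone, and Vcam1 is the gene whose 3 KO points (17.1 to 31.7 CPM) lie below its 3 control points (49.8 to 76.3 CPM).

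The count of rising genes changed with the library left out, and so did the calls over all genes. With all libraries, 1190 of 12953 tested genes rose. Omitting control replicate 2 left 3 of the 10 (484 of 13177 over all genes), and omitting control replicate 1 left 4 (685 of 13144). The count was 5 without Brd9 KO replicate 1 (462 of 13136) or 2 (578 of 13082). It was 8 without control replicate 3 (571 of 13127) or Brd9 KO replicate 3 (2141 of 13124). Vcam1 was lower in each case. Within groups, control replicate 3 held the highest control level of 9 of the 10 genes and control replicate 1 the lowest of 7. Brd9 KO replicate 1 held the lowest KO level of 8. How often these libraries ranked so over all genes was not measured, so nothing is read from these counts.

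All 3 C1q chains rose. C1qb, the B chain, stood at 0.91, 1.27 and 2.72 CPM in the control libraries, against 5.93, 8.04 and 8.44 CPM in the KO libraries. Every KO library lay above every control library, and the lowest KO level was 2.18 times the highest control level. Its log2 fold change was 2.18 ± 0.39 (adjusted p = 0.0184), and it was 2.78 without control replicate 3, the control library with the highest level. C1qc, the C chain, stood at 1.67, 2.28 and 3.05 CPM in the control libraries, against 5.77, 7.31 and 9.21 CPM in the KO libraries. Again the groups were apart, with a log2 fold change of 1.67 ± 0.28 (adjusted p = 0.0156). C1qa, the A chain, stood at 1.59, 2.53 and 4.53 CPM in the control libraries, against 7.36, 7.93 and 15.1 CPM in the KO libraries. Here control replicate 3 and Brd9 KO replicate 3 lay well above the others of their groups, yet the groups did not overlap. The log2 fold change of C1qa was 1.81 ± 0.43 (adjusted p = 0.0428). The call was lost without control replicate 1 (1.51, adjusted p = 0.105) or control replicate 2 (1.72, adjusted p = 0.134).

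Because the 3 chains are used together in one protein, their levels were also compared per length, in TPM. Summed over the chains, the TPM was 5.14, 9.40 and 15.1 in the control libraries, against 32.5, 43.4 and 45.2 in the KO libraries, or 9.86 ± 4.97 and 40.4 ± 6.91 (mean ± SD, n = 3 each). Behind these sums stood 110, 144 and 280 counts in the control libraries and 466, 640 and 680 in the KO libraries, which limits the precision of the control values. The share of C1qa in the sum was 40.6% ± 2.87 in control and 39.0% ± 6.08 in Brd9 KO. That of C1qb was 23.2% ± 3.03 and 30.6% ± 4.42, and that of C1qc 36.2% ± 5.43 and 30.4% ± 1.66. In single libraries the C1qb share ran from 20.96% to 26.6% in control and from 25.9% to 34.7% in Brd9 KO, and the ranges overlapped for each chain.

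**Figure D2:**
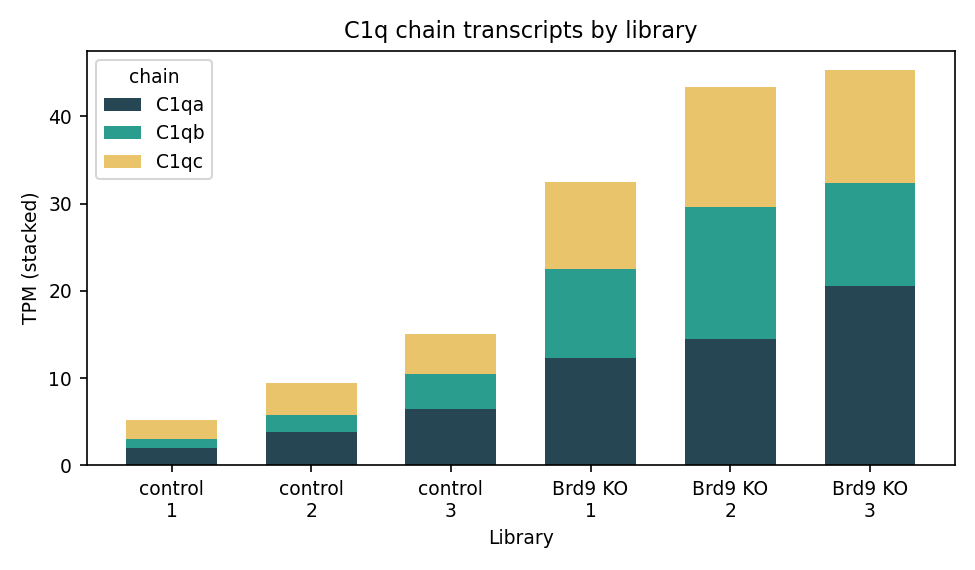
TPM of C1qa, C1qb and C1qc (vertical axis) stacked for each of the 6 libraries (horizontal axis). The summed height lies between 5.14 and 15.1 TPM in the control libraries and between 32.5 and 45.2 TPM in the Brd9 KO libraries, with all 3 chains present in each.

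The receptor kinases of dying-cell uptake moved less firmly. Axl stood at 4.28, 6.87 and 8.83 CPM in the control libraries, against 10.4, 11.7 and 13.3 CPM in the KO libraries. The groups did not overlap, but the lowest KO level was only 1.18 times the highest control level. The log2 fold change was 0.83 ± 0.26 (adjusted p = 0.0955), close to the threshold, and 7 of 17 alternatives lost the call, among them leaving out control replicate 1 (0.59, adjusted p = 0.165), control replicate 2 (adjusted p = 0.187), Brd9 KO replicate 1 (adjusted p = 0.172) or Brd9 KO replicate 2 (adjusted p = 0.206). Mertk was near the limit of detection, with 2, 3 and 11 counts in the control libraries and 19, 39 and 10 in the KO libraries. In CPM, which takes library size into account, this was 0.08, 0.13 and 0.40 against 0.78, 1.42 and 0.48, so that Brd9 KO replicate 3 lay just above control replicate 3. The log2 fold change of Mertk was 2.12 ± 0.64 (adjusted p = 0.0845). It lost its call in 8 of 17 alternatives, including without either of control replicates 1 (adjusted p = 0.217) and 2 (adjusted p = 0.20) or Brd9 KO replicates 1 (adjusted p = 0.170) and 2 (adjusted p = 0.254), and was 3.11 without control replicate 3 but 0.37 on log2(TPM + 1) and 1.45 on log2(TPM + 0.1). With the replicate number as a block it also missed the threshold (2.09, adjusted p = 0.105).

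The third kinase of the family and the bridging ligands were higher as well. Gas6, which bridges phosphatidylserine to Axl, Mertk and Tyro3, went from 1.97 ± 0.584 CPM up to 8.42 ± 1.93 CPM, a log2 fold change of 2.09 ± 0.28 (adjusted p = 0.00714). Its TPM was 0.81, 0.83 and 1.38 in the control libraries, against 5.66, 6.60 and 3.12 in the KO libraries, with no overlap. Pros1, which encodes protein S, rose from 29.05 ± 1.79 to 46.4 ± 7.66 CPM (0.67 ± 0.14, adjusted p = 0.0284). Tyro3 rose from 0.381 ± 0.124 to 1.22 ± 0.124 CPM (1.67 ± 0.33, adjusted p = 0.0261), but like Mertk it entered the test through the KO libraries only. Pros1 and Tyro3 are named as partners of Axl and Mertk, a choice made after their values were seen.

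**Figure D3:**
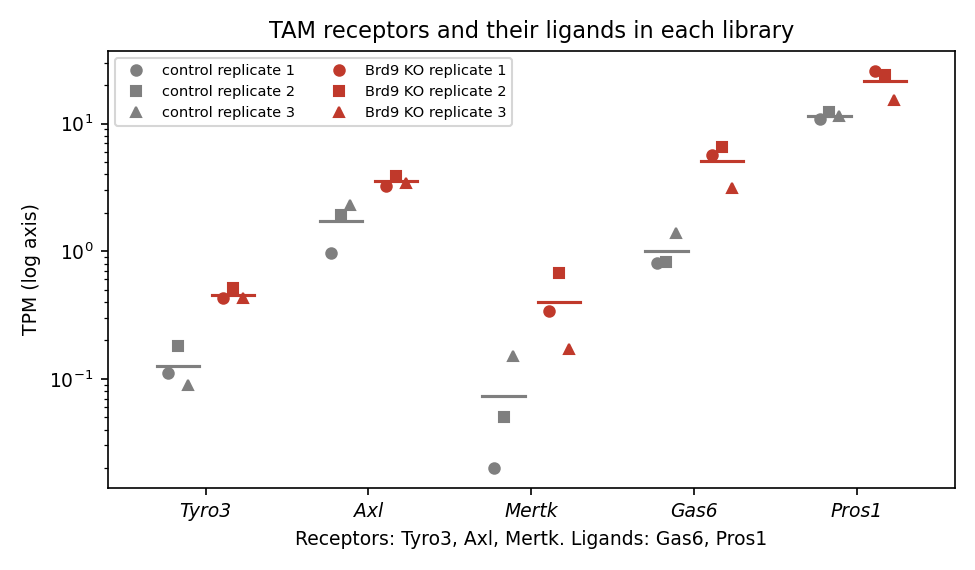
TPM (vertical log axis) of the receptor kinases Tyro3, Axl and Mertk and the ligands Gas6 and Pros1 in each library (points, with lines at the group means). Every KO point lies above every control point of the same gene, most narrowly for Mertk (0.17 TPM in the lowest KO library against 0.15 TPM in the highest control library).

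Of the other surface and lysosomal genes of macrophages, 2 rose and 1 did not pass. Cd68, a lysosomal membrane glycoprotein of phagocytes, stood at 25.1, 24.4 and 31.0 CPM in the control libraries, against 41.2, 42.3 and 52.8 CPM in the KO libraries. The groups were clearly separate, with the lowest KO library 1.33 times the highest control library. This gave a log2 fold change of 0.76 ± 0.14 (adjusted p = 0.0226). Adgre1, which encodes the macrophage antigen F4/80 and is also known from eosinophils, stood at 9.23, 7.63 and 12.5 CPM in the control libraries, against 16.0, 21.8 and 22.5 CPM in the KO libraries. All KO libraries lay above all control libraries. For Adgre1 the log2 fold change was 1.03 ± 0.22 (adjusted p = 0.0318), and the call was lost without control replicate 2 (0.88, adjusted p = 0.101). Mrc1, the mannose receptor CD206, stood at 3.29, 4.43 and 5.34 CPM in the control libraries, against 4.05, 6.51 and 6.41 CPM in the KO libraries. The groups overlapped, since Brd9 KO replicate 1 lay below control replicates 2 and 3, and the log2 fold change of 0.38 ± 0.27 did not pass (adjusted p = 0.388).

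Vcam1 went the opposite way. This adhesion molecule, by which island macrophages hold erythroblasts through the integrin VLA-4, is also made by activated endothelium and stroma. Its level was 49.8, 76.3 and 72.2 CPM in the control libraries, against 17.1, 26.2 and 31.7 CPM in the KO libraries, so the highest KO library lay below the lowest control library, which was 1.57 times higher. The log2 fold change was -1.40 ± 0.25 (adjusted p = 0.01675), and 37.8% of the control mean was left. Exons of Vcam1 overlap those of the antisense gene Gm43109 in the annotation. Since the sources disagree on whether the libraries kept strand (not per the labels, yes per the study's methods), reads of the antisense gene, if any, may stand in the Vcam1 count.

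Spic, the ETS factor required for iron-recycling macrophages of the spleen and marrow, stood at 0.61, 0.59 and 1.03 CPM in the control libraries, against 1.43, 1.49 and 1.30 CPM in the KO libraries. The groups did not overlap, but the log2 fold change of 0.92 ± 0.31 missed the threshold (adjusted p = 0.107). It passed under 4 of 17 alternatives, which were scaling by library totals (1.0, adjusted p = 0.0981), limma-voom (0.95, adjusted p = 0.0951), and leaving out control replicate 3 (1.23, adjusted p = 0.0978) or Brd9 KO replicate 3 (0.96, adjusted p = 0.0835).

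**Figure D4:**
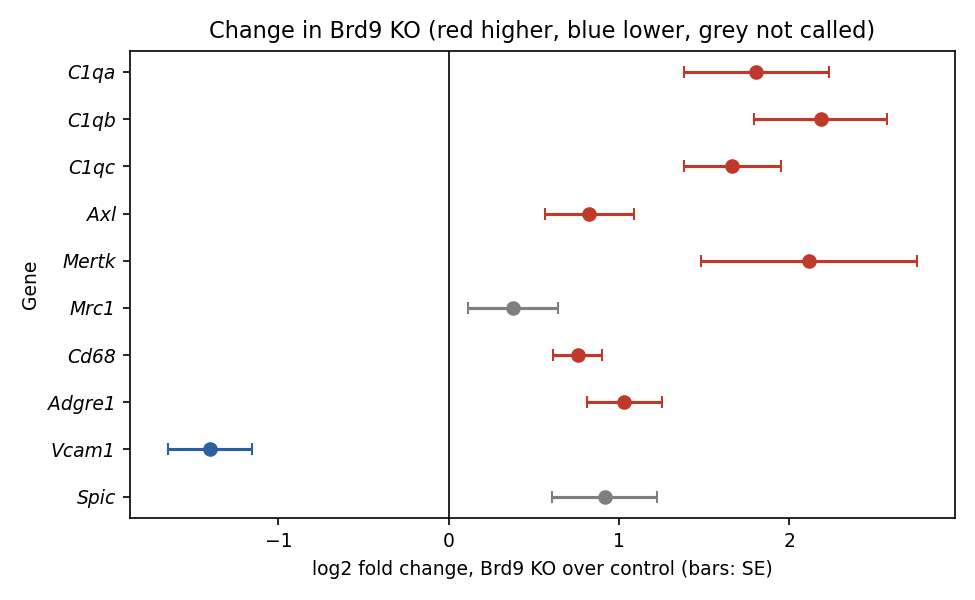
Log2 fold change (Brd9 KO against control) of the 10 genes (points) on the horizontal axis, with bars of 1 SE from edgeR, coloured by call. The values run from -1.40 for Vcam1 to 2.18 for C1qb, and Mrc1 (0.38) and Spic (0.92) did not pass an adjusted p of 0.1.

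The opposite moves of Vcam1 and C1qb were compared within libraries, where scaling between libraries has no part. The ratio of Vcam1 to C1qb in TPM was 14.7, 16.2 and 7.12 in the control libraries, against 0.773, 0.875 and 1.01 in the KO libraries. Thus Vcam1 exceeded C1qb in every control library and was near it in every KO library. The log2 ratio was 3.58 ± 0.65 in control and -0.18 ± 0.20 in Brd9 KO (mean ± SD, n = 3 each), a difference of -3.76. Each gene's groups were already apart in opposite directions, so the ratio had to separate, and its exact two-sided permutation p of 0.1, the minimum that this number of libraries allows, adds no support.

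Ordered by level per length, Cd68 led in both groups, at 32.3 ± 5.38 TPM in control and 62.2 ± 3.79 TPM in Brd9 KO. In control, Vcam1 followed at 25.7 ± 8.01 TPM, within the spread of Cd68. A wide step led down to C1qa (4.10 ± 2.30 TPM), Adgre1 (3.93 ± 1.10 TPM), C1qc (3.40 ± 1.24 TPM), C1qb (2.37 ± 1.48 TPM), Axl (1.73 ± 0.685 TPM), Mrc1 (1.06 ± 0.327 TPM) and Spic (0.860 ± 0.327 TPM), in which no neighbours differed by more than the sum of their SDs. Mertk was last at 0.0733 ± 0.0681 TPM, a step beyond the spread. In Brd9 KO the 3 C1q chains came directly after Cd68, with C1qa at 15.8 ± 4.28 TPM, C1qb at 12.3 ± 2.50 TPM and C1qc at 12.2 ± 2.02 TPM. Vcam1 (10.97 ± 2.78 TPM) and Adgre1 (9.35 ± 1.93 TPM) did not differ from their neighbours above beyond the spread. Axl (3.53 ± 0.325 TPM), Spic (1.90 ± 0.401 TPM), Mrc1 (1.57 ± 0.444 TPM) and Mertk (0.397 ± 0.260 TPM) stood lower, with Spic and Mrc1 not separated.

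The other genes of complement were then counted from a list of 38 proteases, components, regulators and receptors outside C1q, of which 24 were tested. Of these 7 rose, none fell and 17 did not pass in edgeR, with a median log2 fold change of 0.31, while 2 were lower at an unadjusted p under 0.05 and DESeq2 called 1 lower (9.19% of all tested genes were higher and 6.25% lower). Further, 5 (C1s1, C2, C4a, Cfb and Cd59b) entered through the KO libraries only. Among the 18 that passed the filter in control as well the counts were 5, 0 and 13 and the median 0.11. Serping1, the inhibitor of C1r and C1s, rose from 1.03 ± 0.118 to 5.44 ± 0.902 CPM (2.39 ± 0.23, adjusted p = 0.00286). C1s1, a protease that acts with C1q, rose from 0.232 ± 0.0556 to 1.19 ± 0.0898 CPM (2.33 ± 0.32, adjusted p = 0.00779). C3ar1, the receptor for the C3a fragment, rose from 2.32 ± 0.530 to 8.86 ± 2.59 CPM (1.93 ± 0.28, adjusted p = 0.00877). Itgam, a chain of complement receptor 3, rose by 1.19 ± 0.22 on the log2 scale (adjusted p = 0.0191). The most abundant members that did not pass were the chaperone Calr (-0.35, adjusted p = 0.216) and the central component C3 (0.25, adjusted p = 0.542). Leaving out control replicate 2, Brd9 KO replicate 1 or Brd9 KO replicate 2 left 4 rises.

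Of 37 listed genes of phagocytosis, 32 were tested, 11 rose, 2 fell and 19 did not pass (median log2 fold change 0.27). Most serve dying-cell uptake, but the list also holds the Fc receptor genes Fcgr1, Fcgr2b, Fcgr3 and Fcgr4. Of these Fcgr3 rose (0.37 ± 0.11, adjusted p = 0.0726). Tyro3 and Colec12 entered through the KO libraries only and Msr1 through the control libraries only, and of the 29 that passed the filter in both groups 9 rose and 1 fell, beside 9.19% and 6.25% of all tested genes. Besides Gas6, the integrin chain Itgb3 rose from 331 ± 65.1 to 717 ± 159 CPM (1.11 ± 0.20, adjusted p = 0.0182), a gene also abundant in megakaryocytes. Colec12, a scavenger receptor, rose from 0.173 ± 0.112 to 1.23 ± 0.409 CPM (2.84 ± 0.50, adjusted p = 0.0167). Msr1, the class A scavenger receptor of macrophages, stood at 1.61 ± 0.557 CPM in control against 0.20 ± 0.0783 in Brd9 KO (-3.01 ± 0.44, adjusted p = 0.00911). However, Msr1 passed the filter through the control libraries only, which favours a difference, so its call adds no support. The most abundant members not past the test were the GTPase Rac1 (0.10, adjusted p = 0.634) and the antiphagocytic ligand Cd47 (-0.09, adjusted p = 0.579). Omitting Brd9 KO replicate 3 gave 14 rises. Omitting control replicates 1, 2 and 3 in turn gave 6, 4 and 5, and omitting Brd9 KO replicates 1 and 2 gave 4 and 7. Falls were 1 when any library other than Brd9 KO replicate 3 was omitted.

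Few markers of erythroblastic island and iron-recycling macrophages were called. Of 23 tested, 3 rose, 3 fell and 17 did not pass (median 0.29). Igf1 and Maf entered through the KO libraries only. Of the 20 genes that passed the filter in all 3 control libraries, 2 rose and 3 fell. These counts lie near the shares of all tested genes (9.19% higher and 6.25% lower) and are no result about the list. The haemoglobin scavenger receptor Cd163 fell from 5.35 ± 1.31 to 2.40 ± 0.516 CPM (-1.15 ± 0.27, adjusted p = 0.0427) and the biliverdin reductase Blvrb from 195 ± 15.4 to 119 ± 20.1 CPM (-0.72 ± 0.14, adjusted p = 0.0246). The growth factor Igf1 (1.81 ± 0.50, adjusted p = 0.0676) and transferrin, Trf (0.39 ± 0.11, adjusted p = 0.072), rose on the log2 scale. Ferritin light chain Ftl1 (-0.23, adjusted p = 0.478) and the heme transporter Slc48a1 (-0.11, adjusted p = 0.463) did not pass. Omitting control replicate 2, Brd9 KO replicate 1 or Brd9 KO replicate 2 left no rise, and omitting control replicate 1 left 1. Falls were 0 when Brd9 KO replicate 1 was omitted and 1 when control replicate 1 or 3 was. Omitting Brd9 KO replicate 3 gave 5 rises and 5 falls.

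Among 27 other macrophage markers tested, 6 fell, 3 rose and 18 missed the threshold (median log2 fold change -0.09), beside 6.25% of all tested genes lower and 9.19% higher, so that the rises were near the share of all genes. Cd14, the lipopolysaccharide co-receptor, fell from 8.09 ± 1.20 to 2.29 ± 0.497 CPM (-1.83 ± 0.23, adjusted p = 0.00554) and the lipid carrier Apoe from 145 ± 45.2 to 60.3 ± 9.97 CPM (-1.26 ± 0.23, adjusted p = 0.019). The macrophage growth factor Csf1 rose from 26.2 ± 2.03 to 56.1 ± 2.21 CPM (1.10 ± 0.10, adjusted p = 0.00246) and the leukocyte integrin chain Itgb2 from 133 ± 15.4 to 261 ± 44.6 CPM (0.97 ± 0.15, adjusted p = 0.0108). Lysozyme, Lyz2 (0.32, adjusted p = 0.650), and cathepsin D, Ctsd (0.23, adjusted p = 0.327), did not pass. Falls were 9 when Brd9 KO replicate 3 was omitted and 2 or 3 when any other library was. Summed over the 30 genes listed, the level ran from 3249 to 3907 CPM in the control libraries and from 3197 to 4973 CPM in the KO libraries. The highest sum was that of Brd9 KO replicate 3.

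Several markers of resident macrophages were near 0 in both groups, while others were detected. The sialoadhesin of island macrophages, Siglec1, averaged 0.424 ± 0.311 CPM over the control and 0.430 ± 0.170 CPM over the KO libraries. Timd4, Vsig4, Marco, Folr2 and Clec4f, markers of resident macrophages of various tissues, lay at or under 0.280 CPM in both group means and did not pass the filter. Clec4f had no count in any KO library. Csf1r, the receptor for Csf1 that macrophages need and that monocytes and their progenitors also carry, stood at 144 ± 22.4 and 124 ± 14.6 CPM (-0.22 ± 0.14, adjusted p = 0.346). Of other island and resident macrophage markers, Cd163 was given above, the ficolin Fcna rose from 2.96 ± 1.40 to 6.87 ± 1.54 CPM (adjusted p = 0.0728), and Cd5l, an inhibitor of apoptosis in macrophages, stood at 1.52 ± 1.12 and 2.21 ± 0.338 CPM (adjusted p = 0.501). Fcna and Cd5l were named after their values were seen.

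Markers of some other cell types moved beside the 10 genes, and the counts below stand beside 9.19% of all tested genes higher and 6.25% lower. Of 13 tested genes of mesenchymal stroma, 11 rose and none fell. However, 7 of the 13 entered through the KO libraries only, and 4 of the other 6 rose. The summed level of the 14 listed stroma genes ran from 37.3 to 56.6 CPM in control and from 115 to 182 CPM in Brd9 KO. The defining stroma members Cxcl12 (11.1 ± 2.74 CPM in control, 65.7 ± 12.0 in Brd9 KO), Igfbp5 (3.06 ± 0.864 and 19.0 ± 6.26) and Pdgfrb (12.1 ± 2.01 and 29.1 ± 6.32) were detected in every library. The collagen genes Col1a1 (5.70 ± 2.58 and 10.1 ± 4.92 CPM, edgeR adjusted p = 0.258) and Col1a2 (10.1 ± 3.54 and 12.4 ± 2.72 CPM, adjusted p = 0.506) did not pass. Serping1, C1s1, Gas6 and Colec12 are known to be made by stroma as well. Of 10 eosinophil genes, 9 rose and 1 fell, and their summed level ran from 1947 to 2538 CPM in control and from 4413 to 8606 CPM in Brd9 KO. Of 12 endothelial genes, 6 rose, of which Cdh5 and Cldn5 entered through the KO libraries only (4 of the other 10 rose). Their sums were 281 to 335 and 336 to 404 CPM, with Pecam1 the most abundant (119 ± 9.52 and 173 ± 15.2 CPM). Monocyte genes fell in 3 of 10 and rose in none, with sums of 2630 to 3288 and 1335 to 2917 CPM. Counts in the other lists were at most 2 in either direction, so close to the shares of all genes that nothing is read from them: dendritic cell genes gave 0 rises and 1 fall of 11 (sums of 446 to 546 and 390 to 597 CPM), neutrophil genes 1 and 1 of 11 (1743 to 3216 and 1236 to 7868 CPM), and lymphoid genes 2 and 1 of 11 (343 to 398 and 200 to 316 CPM). The counts of 0 (stroma and endothelial genes lower, monocyte and dendritic cell genes higher) were also 0 at an unadjusted p under 0.05 in edgeR, in DESeq2 and in limma-voom. The part of these cell types in the values of the 10 genes was not tested. For the library that stood apart in granulocyte markers, the values without it were measured: without Brd9 KO replicate 3 the log2 fold change was 1.40 for C1qa, 2.09 for C1qb, 1.48 for C1qc, 0.64 for Cd68, 0.94 for Adgre1, 0.73 for Axl, 2.40 for Mertk and -1.61 for Vcam1, and each of these 8 kept its call.

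**Figure D5:**
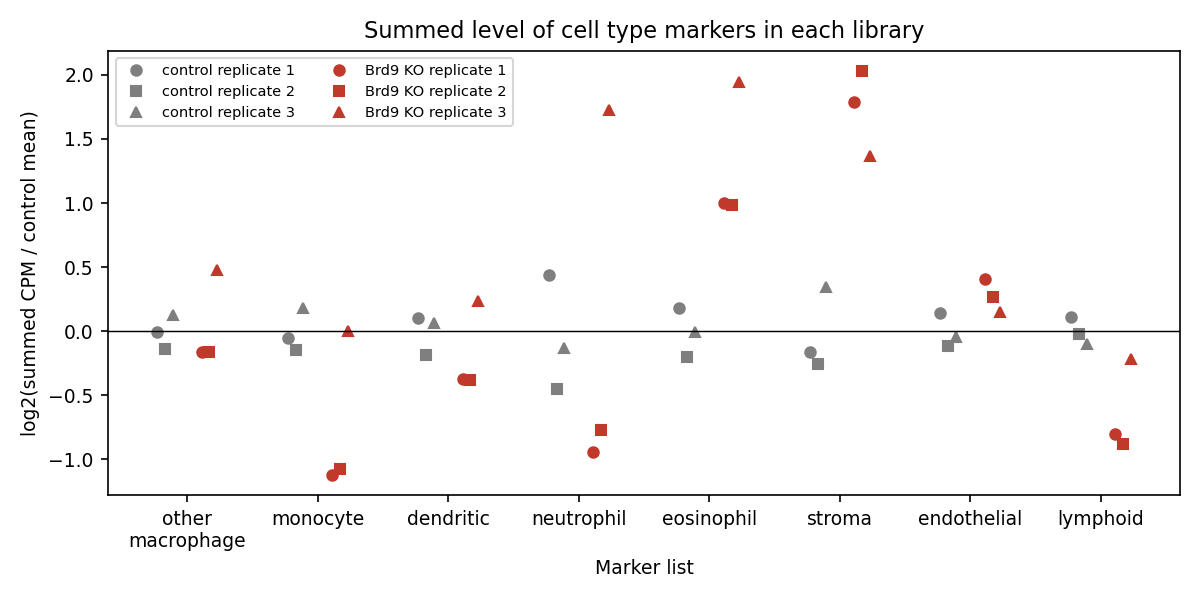
Summed CPM of 8 lists of cell type markers in each library (1 point each), as log2 of its ratio to the control mean (vertical axis). The KO points of the stroma, eosinophil and, narrowly, endothelial lists all lie above the control points, and those of the lymphoid list all below. The lymphoid separation rests largely on Nkg7 (268 ± 37.7 CPM in control, 137 ± 21.8 in Brd9 KO), the most abundant gene of that list. The endothelial separation rests largely on Pecam1 (119 ± 9.52 and 173 ± 15.2 CPM), so neither is read as a change of a cell type. Brd9 KO replicate 3 lies apart from the other KO libraries in the neutrophil, monocyte, eosinophil, other macrophage, dendritic and lymphoid lists.

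The genes whose profiles were closest to those of 3 of the 10 genes were found over the 6 libraries, by the root mean square difference of log2 CPM less the control mean. For C1qb these were 5830416P10Rik (0.188), Pdgfra (0.242), Esm1 (0.319), Slco4c1 (0.327) and Pcolce (0.330). Of these Pdgfra, the platelet-derived growth factor receptor alpha of mesenchymal cells, belongs to the stroma list, and Pcolce encodes an enhancer of procollagen processing. However, Pdgfra passed the filter through the KO libraries only, which favours likeness to a rising gene, so nothing is read from it. Slco4c1 (0.193 ± 0.147 CPM) and Pcolce (0.230 ± 0.0885 CPM) were also low in control. For Cd68 the closest genes were Rnd3 (0.0635), Thy1 (0.0686), Pld3 (0.0856), Igdcc4 (0.0871) and Lag3 (0.0876). For Vcam1 the closest genes were Cfap57 (0.129), Mgl2 (0.219), Bcas1 (0.243), Ryk (0.248) and Bmpr1a (0.248). Mgl2, a lectin of macrophages and dendritic cells, fell from 32.8 ± 4.63 to 10.96 ± 3.62 CPM, beside Vcam1. A small distance describes likeness over 6 libraries of 2 groups and was not tested.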

How the data were processed

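Poly(A) RNA was sequenced from 3 control and 3 Brd9 KO libraries, grouped and numbered by the sample titles. The authors aligned the reads to mm10 with STAR and quantified them with RSEM through the nf-core workflow, according to the methods. The deposited files hold RSEM's expected counts (estimated counts, which need not be whole) and TPM, which the authors computed with RSEM from effective transcript lengths in bases. All 60 values of the 10 genes (10 genes in 6 libraries) were whole within 0.001. The FPKM values in the same files were not used.

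Expected counts were rounded, filtered with filterByExpr (count minimum 10) and scaled by TMM (factors 0.927 to 1.077). Groups were compared over all 12953 genes with edgeR 4.0.16 (quasi-likelihood test, R 4.3.3), with Benjamini-Hochberg adjustment and a threshold of 0.1. The common biological coefficient of variation was 0.175. SD covers the 3 libraries of a group, and the SE of a log2 fold change was obtained from its F statistic. The script was tested on simulated data. Single values were compared by exact two-sided permutation tests. Gene positions are from GENCODE (GRCm38, which is mm10). Depth of 21151000 to 28500200 counts leaves genes under 1 CPM with few reads.

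The 10 genes and the lists were chosen with earlier results of these data known. Named beside the 10 genes and Brd9 were up to 4 called members of each list with the smallest p, its 2 most abundant members not called, defining markers, and the 5 nearest profiles of C1qb, Cd68 and Vcam1. Epb41, Trac and Ly6g were not matched. Some genes under this rule are not reported here. The alternatives tried were scaling by DESeq2's size factors or library totals, no filter, an adjusted p under 0.05, a required 1.5-fold change, DESeq2 1.42.0, a robust fit, a replicate block, leaving out each library, and limma 3.58.1 (voom, or log2 TPM with 1 or 0.1 added).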

Additional observations from a re-analysis of the deposited data

How the results depend on the processing

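No direction turned under any alternative. C1qb, C1qc, Cd68, Vcam1 and Brd9 kept their calls under all 17, and Mrc1 passed under none. With 1 library left out, the number of the 10 genes that were higher ran from 3 to 8, and 1 was lower each time. Over all tested genes, higher calls in those fits ran from 462 to 2141 and lower calls from 179 to 2009. The higher members ran from 4 to 7 (complement), 4 to 14 (phagocytosis), 0 to 5 (island macrophages) and 2 to 4 (other macrophage markers). In the same order, the lower ones ran from 0 to 1, 1 to 2, 0 to 5 and 2 to 9. The difference in the log2 ratio of Vcam1 to C1qb ran from -4.13 to -3.54.

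Among island macrophage markers, DESeq2 called 6 higher, limma-voom 5, an adjusted p under 0.05 left 0, and both TPM fits called 1 lower. Other macrophage markers had 2 lower on log2(TPM + 1), and 3 on log2(TPM + 0.1) or at an adjusted p of 0.05. Of the phagocytosis genes, 7 were higher at an adjusted p of 0.05, and 1 was lower there, under library totals and in both TPM fits. DESeq2 called 1 complement gene lower.

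Over all genes, calls were 1190 higher and 809 lower, but 1402 and 489 under library totals, 963 and 202 on log2(TPM + 1), 982 and 197 on log2(TPM + 0.1), and 1476 and 1252 with DESeq2. They were 672 and 343 at an adjusted p of 0.05, 877 and 348 with a 1.5-fold change required as well, 2141 and 2009 without Brd9 KO replicate 3, and 462 and 179 without Brd9 KO replicate 1. The median log2 fold change of all genes was 0.02, 0.10 under library totals and 0.19 on log2(TPM + 0.1). The causes were not tested.

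Replicate numbers were not taken to pair the libraries. Deviations from the group means correlated at r of -0.09, 0.47 and 0.02 within numbers, and not every library correlated best with its own number. With 3 libraries in each group these correlations cannot decide whether the numbers mark a pairing. With the replicate block, 6 of the 10 genes were higher and 1 lower, the island list had 7 higher, and 1285 genes were higher and 792 lower in all. In that edgeR fit the adjusted p was smaller for C1qa (0.00574), Vcam1 (0.00373) and Axl (0.0417), among others. It was larger for Mertk (0.105) and Spic (0.124). Counts of 2 to 39 reads limit Mertk, and the control C1q values rest on 110 to 280 reads per library.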
